A study of Mus musculus with 12 samples.

Results

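The cathepsins are lysosomal proteases, and 10 of their genes, Ctsa, Ctsb, Ctsc, Ctsd, Ctse, Ctsh, Ctsl, Ctss, Ctsw and Ctsz, were followed here by their symbols among the 5545 genes with complete rows in the deposited table. Of the 10, 2 genes (Ctsc and Ctsw) were set apart as those of cytotoxic lymphocytes and the other 8 were taken as macrophage-type or broadly expressed. All 10 passed the filter on low counts and were tested. The RNA came from 2 kinds of sorted liver cells that were both Lin- and NK1.1+, in 3 lean and 3 obese mice: NK cells, which were CD49b+ without CD49a, and ILC1, which were CD49a+ without CD49b. This gave 12 libraries in 4 groups of 3. Lean mice, of strain C57BL/6, were fed the RM1 diet from weaning for 12 weeks, and obese mice of the same strain were given the obesogenic diet named 45% AFE fat with condensed milk over the same time. The labels name no transgene or deletion, and the mice are numbered 25, 26 and 27 within each diet. The NK cells and ILC1 of a given diet and number came from 1 mouse, whereas a lean and an obese mouse of the same number were different animals.

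Cathepsins are made as inactive precursors and work mainly in the acidic lumen of lysosomes, where they degrade proteins and also cut particular substrates. Cathepsin C (dipeptidyl peptidase I) removes the amino-terminal dipeptide of pro-granzymes and so activates the granule proteases of cytotoxic cells, and cathepsin W is a papain-like enzyme largely restricted to NK cells and cytotoxic T cells. Cathepsin S degrades the invariant chain (Cd74) in antigen-presenting cells, and cathepsin L does so in thymic epithelium. Cathepsins B, H and Z also belong to the papain family, whereas cathepsins D and E are aspartic proteases and cathepsin A is a serine carboxypeptidase. The cystatins are the endogenous inhibitors of the papain-like members.

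On mouse build GRCm38 (mm10), with coordinates from GENCODE M21, Ctsc lies at chr7:88278085-88310888 on the plus strand and Ctsw at chr19:5465043-5468507 on the minus strand. Of the papain-like members of the second set, Ctsb lies at chr14:63122462-63145923 (plus), Ctsz at chr2:174427493-174439039 (minus), Ctss at chr3:95526786-95556403 (plus), Ctsh at chr9:90054152-90076089 (plus) and Ctsl at chr13:64359337-64370890 (minus). The gene of cathepsin A, Ctsa, is at chr2:164832873-164841032 (plus), that of cathepsin D, Ctsd, at chr7:142375911-142388038 (minus), and that of cathepsin E, Ctse, at chr1:131638306-131675505 (plus). Exons are shared with another gene over 1742 bases in Ctsl, 819 in Ctsa, 808 in Ctsd, 774 in Ctsb, 10 in Ctsz and 9 in Ctsw. For Ctsa, Ctsb, Ctsw and Ctsz the overlapping genes lie on the opposite strand, so reads there can be assigned to 1 gene only by strand. Ctsd shares exons with a gene on its own strand, and Ctsl overlaps genes on both strands. The strand setting of the authors' counting is not given in the sources used here.

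RefSeq promoter windows of GRCm38.p6 were found for 6 of the 10 genes (not for Ctsb, Ctse, Ctsh and Ctsw). The 250 bases before the start are printed for the 3 genes whose windows touch no annotated exon: Ctsc (chr7:88277835-88278084, plus strand), Ctss (chr3:95526536-95526785, plus strand) and Ctsz (chr2:174439040-174439289, minus strand). Capitals mark GAGGAA, a core bound by the myeloid and B cell factor PU.1, on either strand (as TTCCTC where it lies on the other one). CACGTG, the E-box core of lysosomal genes, was also searched on both strands, and the motifs do not overlap.
Ctsc: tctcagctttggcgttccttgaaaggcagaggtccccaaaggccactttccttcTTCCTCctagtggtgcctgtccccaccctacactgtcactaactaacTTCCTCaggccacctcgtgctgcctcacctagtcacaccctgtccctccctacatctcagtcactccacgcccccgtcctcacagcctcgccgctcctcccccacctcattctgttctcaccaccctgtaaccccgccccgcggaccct
Ctss: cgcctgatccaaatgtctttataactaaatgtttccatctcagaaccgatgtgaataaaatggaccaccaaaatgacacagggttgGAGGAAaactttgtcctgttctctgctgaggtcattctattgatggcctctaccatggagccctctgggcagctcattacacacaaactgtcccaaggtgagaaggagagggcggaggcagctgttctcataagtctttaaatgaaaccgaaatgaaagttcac
Ctsz: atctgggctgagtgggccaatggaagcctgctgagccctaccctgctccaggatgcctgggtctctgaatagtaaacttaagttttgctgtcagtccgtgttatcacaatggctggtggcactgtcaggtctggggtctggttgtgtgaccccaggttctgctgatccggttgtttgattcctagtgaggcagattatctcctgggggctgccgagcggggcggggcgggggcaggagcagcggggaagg
GAGGAA occurred 196 and 149 bases before the Ctsc start and 164 bases before the Ctss start, the Ctsz window held none, and 23.3% of all 32851 promoter windows of this length held it. CACGTG was absent from these 3 windows. It occurred 245 and 98 bases before the RefSeq start of Ctsd, 236 bases before that of Ctsl and 12 bases before the second start of Ctsa, against 6.02% of all windows. Windows of Ctsd, Ctsl and Ctsa overlap annotated exons. These matches are a description of the sequence only.

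Total counts per library ran from 1666637 to 2826766 over the genes analysed here. Of the libraries, 3 stood apart. In lean NK 27 and obese ILC1 25 only 1948 and 2014 genes had a count, and in obese ILC1 26 there were 3292. Obese ILC1 26 also carried hepatocyte, macrophage and dendritic cell transcripts: the 10 hepatocyte markers made up 9.78% of its counts, against at most 0.0607% in any other library, and the 14 macrophage and Kupffer cell markers 2.45%, against at most 0.168%. Cxcr6, an ILC1 marker used to check the sort, was lower in it, at a normalized count of 6272, against 11470 and 17506 in the other 2 obese ILC1 libraries and 18060 to 23848 in lean ILC1; all NK libraries were at 564 or less. Results that rest on obese ILC1 26 are therefore given with and without it. In such bulk samples, fewer cells of a type cannot be told apart from less RNA per cell. Values below are the authors' normalized counts (counts divided by a factor for each library) unless called raw counts, and log2 fold changes come from edgeR's quasi-likelihood test on the raw counts. A gene was called where the adjusted p (Benjamini-Hochberg, over 2606 tested genes) was under 0.05 and the fold change over 2.

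The 10 cathepsins together took 1.83% to 2.34% of all counts in the 11 libraries other than obese ILC1 26, in which they took 5.10%. Compared per kilobase of exon, Ctsd and Ctsw had the highest levels in NK cells and ILC1 of both diets once that library was set aside. In lean NK cells the normalized count per kilobase was 7097 ± 1694 (SD, n = 3) for Ctsd and 6081 ± 1306 for Ctsw, and their ranges overlapped. Ctsc (829 ± 75.1) and Ctsa (740 ± 69.0) came next and overlapped as well, followed by Ctsb (364 ± 45.6), Ctss (344 ± 32.8), Ctsz (274 ± 12.9) and Ctse (87.9 ± 34.1). Ctsb and Ctss overlapped, and Ctss and Ctsz did not. Ctsl (10.2 ± 9.81) and Ctsh (0.444 ± 0.770) were the lowest. In lean ILC1 the order differed at the top: Ctsw (7430 ± 642) lay above Ctsd (5053 ± 97.8) with no overlap, Ctsa (1207 ± 57.7) was the third and Ctsb (742 ± 67.0) the fourth, ahead of Ctsc (567 ± 143), whose range met that of Ctsb. With the length of the longest transcript in place of all exons, Ctsc and Ctsb changed places in lean ILC1, as did Ctss and Ctse.

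**Figure D1:**
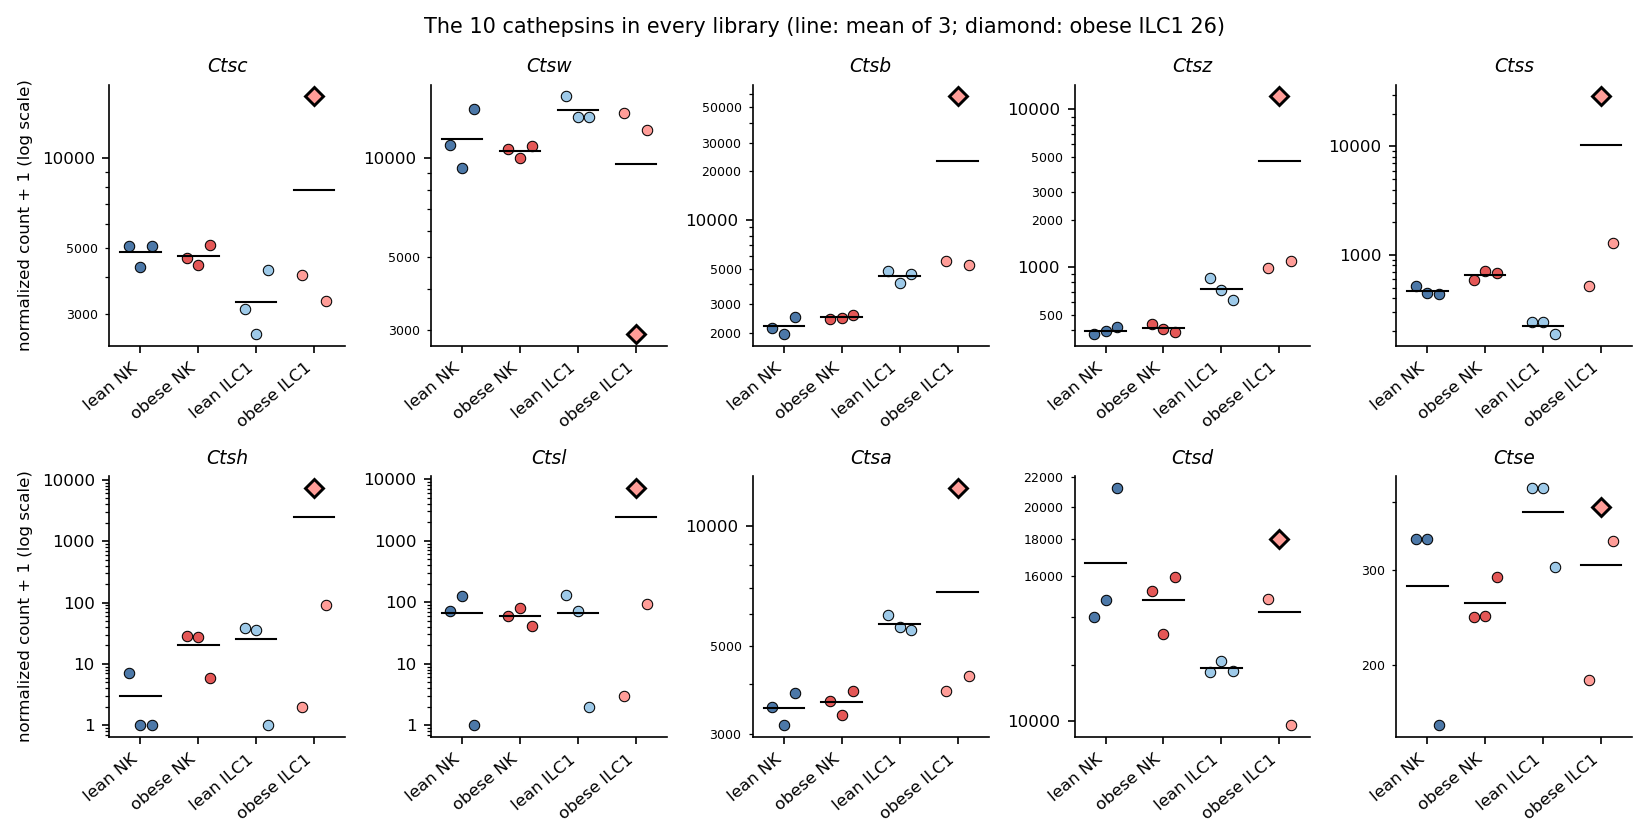
Normalized counts (plus 1, log axis) of each of the 10 cathepsins in the 12 libraries, 3 per group, with the mean of each group as a line and obese ILC1 26 as a diamond. That library is the highest of its group for 9 genes and the lowest for Ctsw, at 2928.

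Ctsw was among the most abundant cathepsin transcripts in every library but 1. Its normalized counts were 10941, 9320 and 14162 in lean NK cells of mice 25, 26 and 27, and 10671, 9990 and 10864 in obese NK cells. In ILC1 they were 15420, 13328 and 13313 in lean mice and 13708, 2928 and 12153 in obese mice. Lean NK and lean ILC1 ranges overlapped through lean NK 27, and the single low value was that of obese ILC1 26. On the log2 scale ILC1 differed from NK cells, as the mean of both diets, by 0.07 (SE 0.30, adjusted p = 0.955), and without obese ILC1 26 by 0.27 (SE 0.10, adjusted p = 0.157). The sign of the first value turned when obese ILC1 25 or 27 was left out.

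Ctsc, whose product activates granzymes, was at 5070, 4314 and 5068 in lean NK cells and at 4612, 4364 and 5098 in obese NK cells. In lean ILC1 it was at 3117, 2569 and 4199, below every lean NK library, and in obese ILC1 at 4053, 16100 and 3302. Obese ILC1 25 and 27 lay below all 6 NK libraries, and obese ILC1 26 above them all. The log2 fold change between lean ILC1 and lean NK cells was -0.54 (SE 0.46, adjusted p = 0.796), and it was not called. Over both diets it was 0.06 (SE 0.33, adjusted p = 0.972) with all libraries and -0.47 (SE 0.13, adjusted p = 0.0543) without obese ILC1 26. In that library the genes of the pair went opposite ways, with Ctsc 3.97 times the next obese ILC1 value and Ctsw 0.241 times the lower of the other 2.

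Together, Ctsc and Ctsw made up 43.3%, 39.1% and 40.2% of the raw counts of the 10 cathepsins in lean NK cells, and 40.3%, 41.1% and 40.2% in obese NK cells. The shares in lean ILC1 were 43.3%, 40.6% and 43.3%, and those in obese ILC1 were 40.6%, 11.6% and 41.0%. Apart from obese ILC1 26, the share of raw counts thus stayed between 39.1% and 43.3% in all groups, while its makeup differed: Ctsw alone held 26.7% to 29.6% in lean NK cells and 32.9% to 36.0% in lean ILC1, and Ctsc 10.6% to 13.7% and 6.56% to 10.4%. Ctsd held 37.9% to 44.5% in lean NK cells and 27.4% to 31.0% in lean ILC1. Per kilobase of exon, the share of Ctsc and Ctsw differed between the cell types in lean mice. It was 41.5% to 46.1% in lean NK cells and 48.9% to 52.1% in lean ILC1, which did not overlap. In obese NK cells it was 42.8% to 44.1%. In obese ILC1 25, 26 and 27 it was 46.5%, 7.60% and 47.3%, so that obese ILC1 lay above obese NK cells only without obese ILC1 26. No test was made on these shares.

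**Figure D2:**
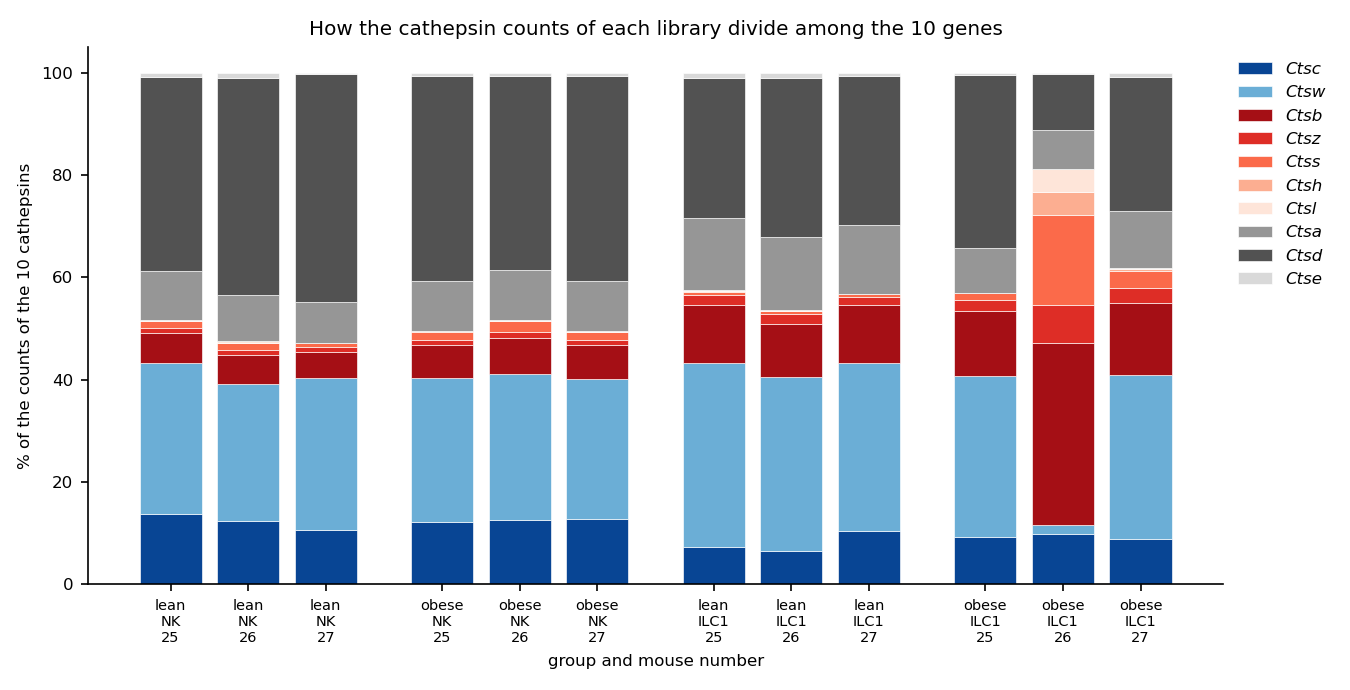
Percent of the raw counts of the 10 cathepsins that each gene took (stacked bars, y axis) in each of the 12 libraries, by group and mouse number. Blue marks Ctsc and Ctsw, whose summed share was 39.1% to 43.3% in 11 libraries and 11.6% in obese ILC1 26, where Ctsb took 35.6% and Ctss 17.7%.

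To ask how the cathepsins of both cell types differ, the ILC1 minus NK difference was averaged over the diets. Ctsb and Ctsz, a pair of papain-like lysosomal peptidases, were higher in ILC1, and none of the 10 was called lower. These 2 of 10 stand beside 4.34% of all tested genes called (113 of 2606), 3.15% higher and 1.19% lower; 19.0% had an unadjusted p under 0.05. The median log2 fold change of the 8 macrophage-type and other cathepsins was 1.73 with all libraries and 0.31 without obese ILC1 26, while the median of all tested genes was 0.04.

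Ctsb was at 2131, 1972 and 2509 in lean NK cells and at 2422, 2469 and 2584 in obese NK cells. All 6 ILC1 libraries were higher, with 4831, 4042 and 4600 in lean mice and 5585, 58340 and 5272 in obese mice. Within 1 diet, all ILC1 libraries lay above all NK libraries for 13.6% (lean) and 9.40% (obese) of all tested genes. The share that did so over both diets together is not given. The log2 fold change was 2.07 (SE 0.51, adjusted p = 0.0398). Obese ILC1 26 was 10.4 times the next library, and without it the value was 1.05 (SE 0.09, adjusted p = 5.19e-05), and Ctsb was still called, beside 4.63% of genes.

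Ctsz was at 377, 394 and 414 in lean NK cells and at 433, 406 and 385 in obese NK cells, so that the 6 NK libraries lay close together. In lean ILC1 it was at 855, 712 and 615 and in obese ILC1 at 983, 12097 and 1099, all above the NK libraries. The log2 fold change was 2.16 (SE 0.54, adjusted p = 0.0405), and 1.10 (SE 0.17, adjusted p = 0.00236) without obese ILC1 26.

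Both calls depended on the model and on the libraries used. With the mouse as a block, which uses that each liver gave a library of either cell type, neither was called: Ctsb had a log2 fold change of 1.57 (adjusted p = 0.199) and Ctsz of 1.62 (adjusted p = 0.209), beside 1.77% of genes called. With this block and without both libraries of obese mouse 26, Ctsb was called (1.05, adjusted p = 0.00536) and Ctsz was not (1.09, adjusted p = 0.0948), beside 2.25% of genes. Leaving out any 1 of the 9 libraries that are not obese ILC1, with obese ILC1 26 kept in, also ended both calls. Without obese ILC1 25, a library with few genes detected, Ctsb, Ctsz and also Ctsh were called (3 of 10, beside 5.73% of genes). That fit kept obese ILC1 26.

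In lean mice all 3 ILC1 values lay above all 3 NK values for Ctsa, Ctsb and Ctsz and below them for Ctsc, Ctsd and Ctss. Such a lack of overlap occurred upward in 13.6% and downward in 11.4% of all tested genes. None of the 10 was called in the fit on all 12 libraries (2.30% of genes called, 1.50% higher and 0.806% lower), in which the spread is shared with obese ILC1. Ctsb had a log2 fold change of 1.04 (SE 0.71, adjusted p = 0.673) there, of 1.02 (SE 0.13, adjusted p = 0.000874) without obese ILC1 26, when it was called beside 3.11% of genes, and of 1.03 when the 6 lean libraries were fitted alone, when it was again the 1 cathepsin called, beside 3.55%. It was not called there with the mouse as a block (0.806% of genes) or without obese ILC1 25 (3.63%). Ctsz had 0.90 (SE 0.74, adjusted p = 0.764) with all libraries and 0.87 (SE 0.23, adjusted p = 0.0645) without obese ILC1 26.

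Ctsa, which encodes the protective protein of the lysosomal sialidase and β-galactosidase, was at 3500, 3158 and 3808 in lean NK cells and at 5997, 5592 and 5480 in lean ILC1. Its log2 fold change in lean mice was 0.72 (SE 0.35, adjusted p = 0.421) with all libraries. Without obese ILC1 26 it was 0.70 (SE 0.12, adjusted p = 0.00584), past the p threshold at a fold change under 2. In obese mice Ctsa was at 3633, 3353 and 3853 in NK cells and at 3851, 12493 and 4206 in ILC1, and the ranges met. Over both diets it differed by 0.78 (SE 0.25, adjusted p = 0.0954), and by 0.41 (SE 0.09, adjusted p = 0.0153) without obese ILC1 26, under a fold change of 2.

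Ctsd, the main aspartic protease of lysosomes, was at 13988, 14809 and 21258 in lean NK cells and at 11741, 12145 and 11753 in lean ILC1. The high NK value was that of lean NK 27, 1 of the libraries with few genes detected. Obese NK cells were at 15239, 13245 and 15923 and obese ILC1 at 14832, 18018 and 9875, so that these groups overlapped. The log2 fold changes were -0.47 (SE 0.21, adjusted p = 0.356) in lean mice and -0.30 (SE 0.15, adjusted p = 0.309) over both diets. Ctse, the other aspartic protease, ran from 154 to 341 in lean NK cells, 244 to 290 in obese NK cells, 303 to 424 in lean ILC1 and 187 to 391 in obese ILC1, and the log2 fold change over both diets was 0.32 (SE 0.30, adjusted p = 0.713).

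Ctss, the invariant chain protease, was lower in lean ILC1 than in lean NK cells and reached its highest values in obese ILC1. It was at 518, 443 and 439 in lean NK cells, at 239, 239 and 187 in lean ILC1, at 584, 716 and 677 in obese NK cells and at 515, 28950 and 1280 in obese ILC1. The lean groups did not overlap and the obese groups did. Its log2 fold change, ILC1 over NK cells, was -1.06 (SE 1.03, adjusted p = 0.842) in lean mice and 3.84 (SE 1.13, adjusted p = 0.141) in obese mice, where it was 0.41 (SE 0.37, adjusted p = 0.688) without obese ILC1 26. Over both diets it was 1.39 (SE 0.73, adjusted p = 0.348), and it turned to -0.33 (SE 0.25, adjusted p = 0.533) without obese ILC1 26.

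Ctsh, an aminopeptidase, and Ctsl, an endopeptidase, had low counts in all libraries but obese ILC1 26. Raw counts of Ctsh were 6, 0 and 0 in lean NK cells, 36, 35 and 0 in lean ILC1, 35, 39 and 7 in obese NK cells and 1, 4217 and 129 in obese ILC1. Those of Ctsl were 76, 123 and 0 in lean NK cells, 126, 71 and 1 in lean ILC1, 75, 120 and 54 in obese NK cells and 2, 4122 and 130 in obese ILC1. The libraries with few genes detected, lean NK 27 and obese ILC1 25, were among the lowest for both genes, as was lean ILC1 27. Over both diets the log2 fold changes were 5.23 (SE 1.66, adjusted p = 0.0996) for Ctsh and 2.64 (SE 1.48, adjusted p = 0.395) for Ctsl. Without obese ILC1 26 they were 2.40 (SE 1.50, adjusted p = 0.416) and -0.17 (SE 1.33, adjusted p = 0.977), so that no difference was detectable at this depth.

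In obese mice, Ctsb and Ctsz were the 2 cathepsins whose ILC1 libraries all lay above the NK libraries (9.40% of all tested genes did so), and none lay wholly below (13.7%). None of the 10 was called with all libraries, beside 0.921% of genes. The log2 fold changes were 3.11 (SE 0.76, adjusted p = 0.0803) for Ctsb and 3.43 (SE 0.80, adjusted p = 0.0727) for Ctsz, and 1.09 (SE 0.14, adjusted p = 0.00216) and 1.32 (SE 0.25, adjusted p = 0.0249) without obese ILC1 26, when both were called beside 1.89% of genes. With the mouse as a block and without both libraries of obese mouse 26, neither was called (1.07, adjusted p = 0.0825 for Ctsb; 1.30, adjusted p = 0.458 for Ctsz), beside 0.300% of genes. Without obese ILC1 25 and with obese ILC1 26 kept in, Ctsb, Ctss and Ctsz were called, beside 2.35%. Ctsc differed by 0.65 (SE 0.46, adjusted p = 0.671) and Ctsw by -0.16 (SE 0.43, adjusted p = 0.953). The values without obese ILC1 26 were -0.39 (Ctsc) and 0.26 (Ctsw), each of the opposite sign.

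**Figure D3:**
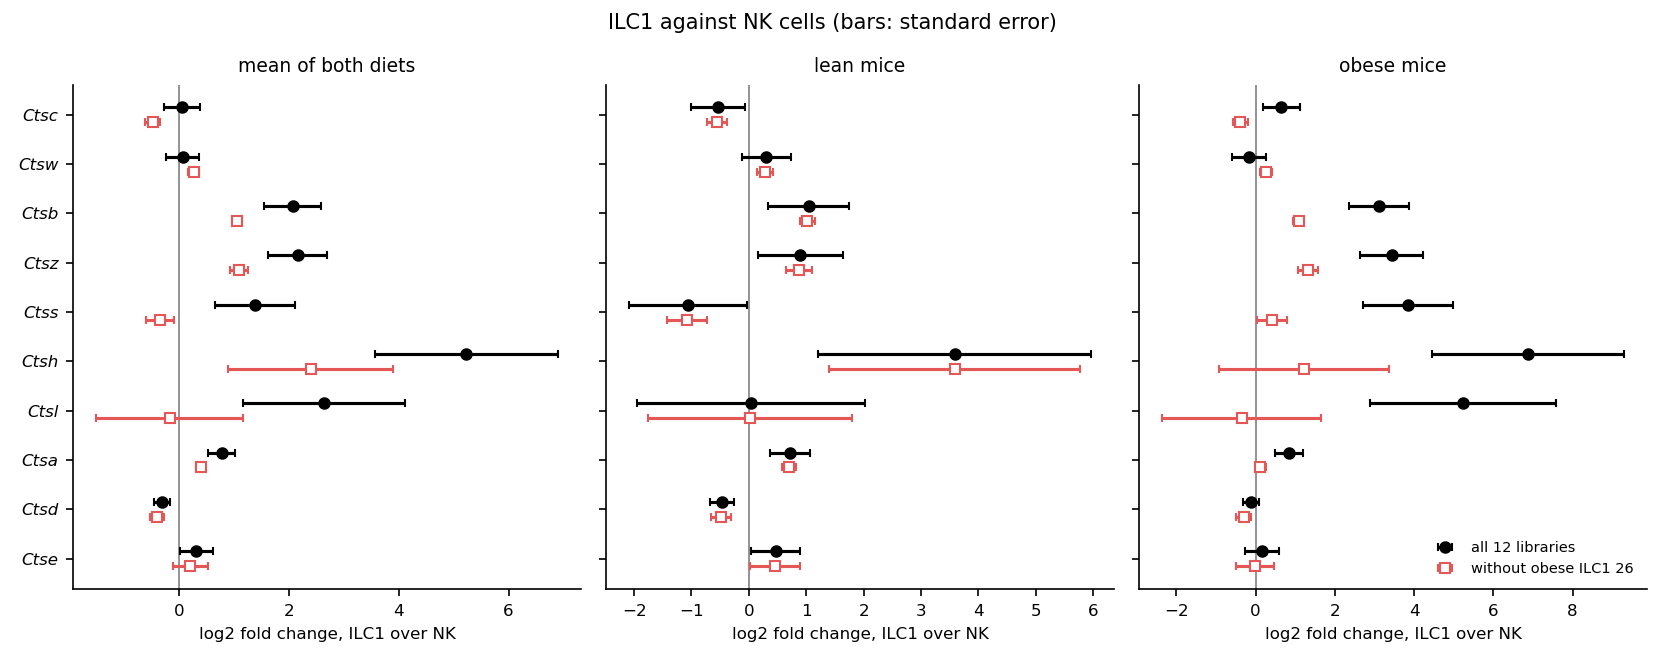
Log2 fold changes (x axis) of the 10 cathepsins in ILC1 over NK cells, with standard errors, as the mean of both diets and in lean and obese mice. Black circles use all 12 libraries and open red squares leave out obese ILC1 26, which brings Ctsb from 2.07 to 1.05 and Ctsz from 2.16 to 1.10 in the mean of both diets.

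Some markers of macrophages and Kupffer cells also differed between the cell types over both diets. Of the 13 tested, Adgre1, C1qa, C1qc and Cybb were called higher in ILC1 as the mean of both diets, beside 3.15% of all tested genes. Cd163, at 753 in lean NK 27 and 0 to 2 in lean ILC1, was called lower when obese ILC1 26 was left out. Adgre1 and Cybb were still called higher without obese ILC1 26, when 4.63% of all tested genes were called either way. The median fitted log2 fold change of the 13 was 5.11 in lean mice and 7.04 in obese mice, and 5.10 and 3.49 without that library, but it depends on the prior count because several markers were at 0 in lean NK cells; in lean mice none was called higher in either fit. The summed normalized count of the 14 markers was 253, 169 and 1161 in lean NK cells and 838, 520 and 287 in lean ILC1, which overlapped. It was 401, 244 and 263 in obese NK cells and 2242, 78721 and 3031 in obese ILC1, which did not overlap. In lean NK cells 6 of the 14 (Adgre1, Cd14, Cd300e, Cd5l, Clec4n and Csf1r) were at 0 in all 3 libraries, and 1 (Clec4n) was at 0 in all lean ILC1 libraries. The receptor gene Csf1r was at 63, 44 and 0 in lean ILC1 and at 0, 9307 and 220 in obese ILC1. Dendritic cell markers summed to 85 to 283 in lean NK cells, 929 to 2224 in lean ILC1, 506 to 1159 in obese NK cells and 2358 to 181398 in obese ILC1. In ILC1 these sums were mostly Cd74, at 852 to 2063 in lean ILC1. Clec9a and Clec10a were at 0 in every lean library. T cell markers (8 genes) summed to 993 to 2114 in all NK libraries and 4651 to 17456 in ILC1, where Cd3d, Cd3e and Cd3g were called higher, although the sort excluded CD3+ cells. In lean ILC1 most of the sum was Cd3g, at 12468 to 13673. Cd8a and Cd8b1 were at 0 there, and Cd4 and Cd5 reached at most 187 and 176. Cd28 was at 702 to 1506 in lean NK cells and 897 to 1085 in lean ILC1. The sums of B cell and neutrophil markers reached 18108 and 8519 in obese ILC1 26 and at most 454 and 39 elsewhere. The part of other cell types in the higher Ctsb and Ctsz of ILC1 was not tested.

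The comparison of diets asked whether obesity changed the cathepsins of NK cells. None of the 10 was called, and neither was any of the 2606 tested genes (0%); 31 genes had an unadjusted p under 0.05, and DESeq2 called 8. All but Ctsh and Ctss had log2 fold changes between -0.13 (Ctsd, SE 0.20) and 0.21 (Ctsb, SE 0.70). The value of Ctsd turned positive when lean NK 27 was left out. The means of Ctsc were 4817 ± 436 (SD, n = 3) in lean and 4691 ± 373 in obese NK cells, and those of Ctsw 11474 ± 2465 and 10508 ± 459, each closer together than the SD of lean NK cells. Ctss was the 1 cathepsin whose obese NK libraries (584 to 716) all lay above the lean ones (439 to 518), where 9.90% of all tested genes did so; none of the 10 lay wholly below (6.33%). Its log2 fold change was 0.53 (SE 1.01, adjusted p = 1). For Ctsh the value was 3.30 (SE 2.36, adjusted p = 1), on raw counts of at most 39.

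In ILC1, Ctsb, Ctss and Ctsz were higher in every obese library than in every lean one (7.29% of all tested genes were), and none of the 10 was lower throughout (7.94%). None was called, nor was any tested gene (0%), although 277 had an unadjusted p under 0.05 and DESeq2 called 77. Ctss differed most among these 3, with a log2 fold change of 5.44 (SE 1.22, adjusted p = 0.208) and of 2.02 (SE 0.38, adjusted p = 0.161) without obese ILC1 26. DESeq2, an alternative test, called Ctss at 5.54 (adjusted p = 6.55e-05) with obese ILC1 26 kept in. When obese ILC1 26, lean NK 27 and obese ILC1 25 were all left out, a choice made after seeing the data, Ctss differed by 2.54. Obese ILC1 27 was then the single library of its group and was assumed to vary like the others. Without obese ILC1 25 alone, a fit that keeps obese ILC1 26, edgeR called Ctss at 5.99 (adjusted p = 0.0387), beside 0.214% of genes. Ctsb differed by 2.28 (SE 0.73, adjusted p = 0.287) and Ctsz by 2.62 (SE 0.77, adjusted p = 0.281). Without obese ILC1 26 these were 0.28 (SE 0.14, adjusted p = 0.537) and 0.52 (SE 0.25, adjusted p = 0.517). Among the cathepsins of cytotoxic cells, Ctsc differed by 1.18 (SE 0.47, adjusted p = 0.369) and Ctsw by -0.56 (SE 0.43, adjusted p = 0.732), and by 0.16 (SE 0.19) and -0.11 (SE 0.16) without that library.

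The difference between the diet effects in ILC1 and NK cells was tested directly, and none of the 10 and none of all genes (0%) was called. An unadjusted p under 0.05 was given to 155 genes (5.95%), and DESeq2 called 21. Without obese ILC1 25, 0.0356% of genes and none of the 10 were called. Ctss had a difference of 4.90 on the log2 scale (SE 1.51, adjusted p = 0.741), and of 1.49 (SE 0.50, adjusted p = 0.560) without obese ILC1 26. Ctsz had 2.53 (SE 1.05, adjusted p = 0.793), and 0.44 (SE 0.34, adjusted p = 0.877) without it.

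**Figure D4:**
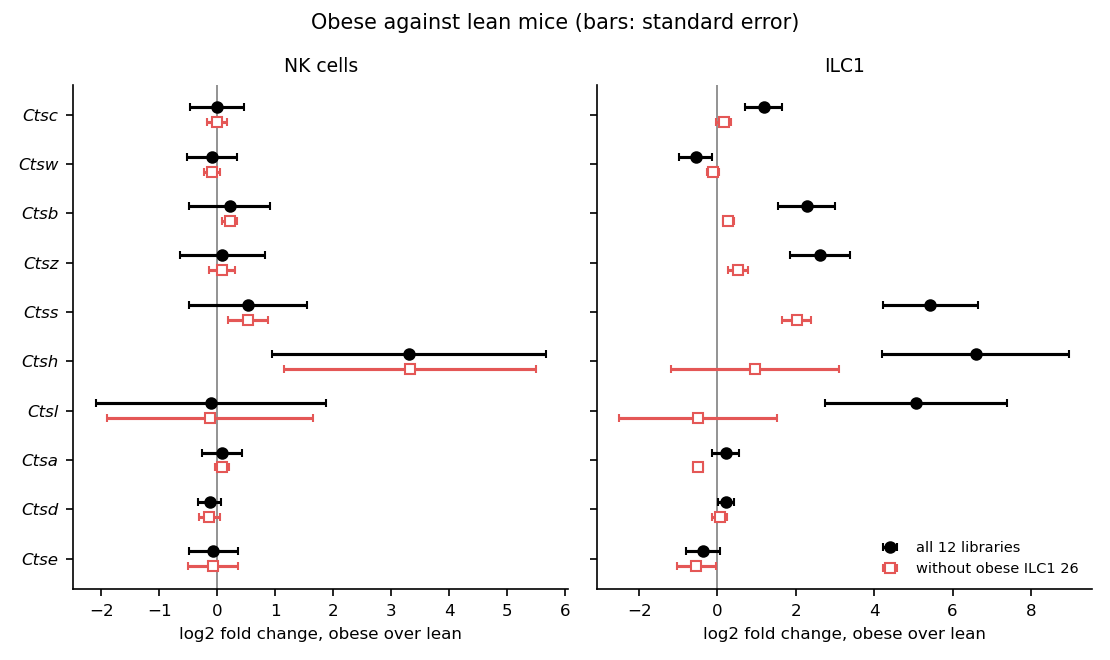
Log2 fold changes (x axis) of the 10 cathepsins in obese over lean mice, with standard errors, in NK cells and in ILC1. Black circles use all 12 libraries and open red squares leave out obese ILC1 26; in NK cells the 2 fits nearly coincide, and in ILC1 Ctss goes from 5.44 to 2.02.

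Of the 16 listed genes for inhibitors of cathepsins, 14 were in the table and 6 were tested. The level of Cst3, which encodes the secreted inhibitor cystatin C, followed Ctsb and Ctsz across the libraries. It was at 1232, 1230 and 994 in lean NK cells, 1172, 1293 and 1185 in obese NK cells, 2101, 1550 and 1695 in lean ILC1 and 2278, 16032 and 2414 in obese ILC1. All ILC1 values of Cst3 lay above all NK values, and the share of all tested genes that did so over both diets is not given. Its log2 fold change over both diets was 1.53 (SE 0.42, adjusted p = 0.0600) and it was not called. Without obese ILC1 26 it was 0.77 (SE 0.13, adjusted p = 0.00320), under a fold change of 2. Among all tested genes that are not members, Cst3 had the highest Pearson r with Ctsb (0.985) and with Ctsz (0.992) over the 12 libraries. Without obese ILC1 26 these were 0.914 and 0.952, and r between Ctsb and Ctsz themselves was 0.954 over 11 libraries. Such correlations are given as a description, because libraries of 1 group and of 1 mouse are not independent.

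**Figure D5:**
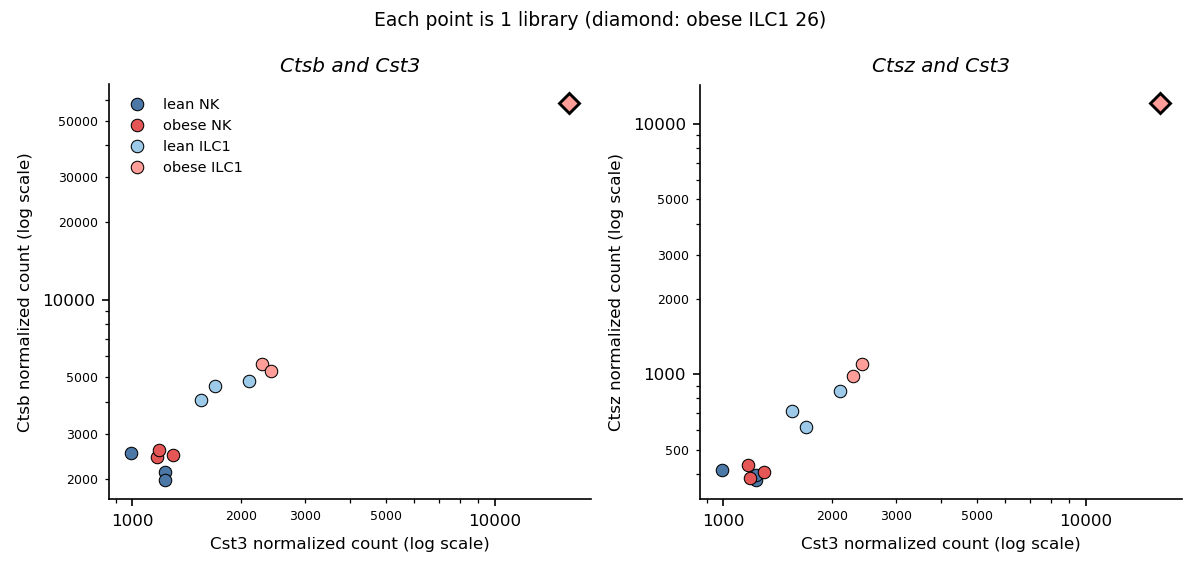
Normalized counts (log axes) of Ctsb and Ctsz against those of Cst3, 1 point per library in 4 groups of 3, with obese ILC1 26 as a diamond. The 6 NK libraries form 1 cluster at Cst3 values of 994 to 1293, the lean ILC1 libraries lie at 1550 to 2101, and obese ILC1 25 and 27 at 2278 and 2414.

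The inhibitor gene Ctla2a, whose product is related to the propeptide of cathepsin L, was called lower in ILC1. It was at 1977, 2214 and 1774 in lean NK cells and at 515, 613 and 769 in lean ILC1, and its log2 fold change in lean mice was -1.64 (SE 0.24, adjusted p = 0.00436). In obese mice it was at 1953, 2320 and 1885 in NK cells and at 1939, 1182 and 1759 in ILC1, with -0.38 (SE 0.24, adjusted p = 0.592). Over both diets the value was -1.01 (SE 0.17, adjusted p = 0.00522), and -0.93 (SE 0.14, adjusted p = 0.00189) without obese ILC1 26, then under a fold change of 2. Ctla2a in ILC1 was 1.34 higher in obese than in lean mice (SE 0.24, adjusted p = 0.208), and 1.55 (SE 0.20, adjusted p = 0.0199) without that library, when it was called. Cst7, which encodes cystatin F, an inhibitor of cathepsin C in cytotoxic cells, was at 2528 to 4189 in lean NK cells, 2293 to 2822 in lean ILC1, 2443 to 2891 in obese NK cells and 604 to 1980 in obese ILC1. Its log2 fold change over both diets was -0.59 (SE 0.27, adjusted p = 0.264). For Cstb, the cytosolic stefin B, the value was 0.68 (SE 0.19, adjusted p = 0.0686), for Ctla2b -0.89 (SE 0.35, adjusted p = 0.183) and for Cstad 0.43 (SE 1.05, adjusted p = 0.911).

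Among genes for substrates of cathepsins, Cma1, a chymase that is activated by cathepsin C, was lower in ILC1 in both diets. It was at 7960, 6869 and 9490 in lean NK cells, 36, 68 and 214 in lean ILC1, 5638, 5096 and 5571 in obese NK cells and 810, 274 and 150 in obese ILC1, with a log2 fold change of -5.01 (SE 0.53, adjusted p = 0.000289) over both diets. Cd74, the invariant chain cut by cathepsin S, was called higher in ILC1 at 4.69 (SE 1.10, adjusted p = 0.0306), and at 2.78 (SE 0.65, adjusted p = 0.0261) without obese ILC1 26. Its values were 276, 180 and 7 in lean NK cells, 2063, 1375 and 852 in lean ILC1, 781, 1132 and 495 in obese NK cells and 2353, 178451 and 6105 in obese ILC1. In lean ILC1, Cd74 was thus above lean NK cells while Ctss was below them.

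Of 30 other genes of the lysosome list, all tested, 1 was called higher in ILC1 over both diets (Cd63, a membrane protein of late endosomes) and none lower. Over all tested genes 3.15% were called higher and 1.19% lower, so that the list lay near the share of all genes. The median log2 fold change of the list was 0.22 (-0.10 without obese ILC1 26). Of 13 other cathepsin genes in the table, 1 passed the filter: Ctso, at 775 to 1044 in lean NK cells, 840 to 1081 in lean ILC1, 856 to 943 in obese NK cells and 1193 to 2425 in obese ILC1. Its log2 fold change over both diets was 0.57 (SE 0.18, adjusted p = 0.0904).

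The genes most alike the other cathepsins over the 12 libraries differed from gene to gene. For Ctsw these were Cd244 (r = 0.949), which encodes a receptor of NK cells, Alkbh2 (0.934) and Ccl4 (0.931), but without obese ILC1 26 the values fell to 0.674, 0.474 and 0.302. Ctsc went with Cd1d1 (0.926, and 0.756 without that library). Ctsh went with Csf1r (0.977 and 0.944) and Cd5l (0.958 and 0.923), genes of macrophages, and Ctss with Chil3 (0.966 and 0.811). Ctsd went with Adam17 (0.949 and 0.944), Ctsa with Cpne2 (0.921 and 0.802), Ctse with Akap7 (0.913 and 0.909) and Ctsl with Crip2 (0.986 and 0.972). Outside obese ILC1 26, Ctsh and Ctsl had low counts, and Csf1r and Cd5l were at 0 in every lean NK library. This limits what the r of Ctsh and Ctsl can show. Deviations from the group means, over all 12 libraries with obese ILC1 26 included, gave r of 0.944 for Ctsw with Cd244 and of 0.970 for Ctsh with Csf1r. They were not computed without that library.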

How the data were processed

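RNA from NK cells and ILC1 of 3 lean and 3 obese mice was sequenced from 2 ng of total RNA. The submitters' processing notes name bcl2fastq 2.19, Trimmomatic 0.36.5, STAR 2.5.2b, featureCounts 1.6.0.2 and build mm10. The authors deposited raw counts per gene and a score, the counts divided by a factor for each library and rounded. Their annotation and strand setting are not given in the sources used here. Genes with symbols up to Cyp26b1 (5545, and 1 incomplete row left out) were analysed, and totals per library cover these genes only. Counts were tested with edgeR 4.0.16 (quasi-likelihood, TMM, filterByExpr, 1 model of 4 groups) in R 4.3.3, with DESeq2 1.42.0 as an alternative; the code was checked on simulated data. NK cells and ILC1 of 1 mouse are paired by origin, and their deviations from group means correlated between -0.0763 and 0.141. No replicates agreed within sampling noise. Each group holds 3 mice. The main model treated all libraries as independent, so its p-values for ILC1 against NK cells do not use the pairing by mouse. They rest on the spread within groups, pooled over the 4 groups, so that libraries outside a comparison also affect its p-values.

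The members, gene lists and motifs were chosen with earlier results of these data known. Genes named beside the cathepsins were other cathepsins and inhibitors or substrates that passed the filter, and for each cathepsin up to 3 genes with the highest r of log2 CPM (prior count 2). Cxcr6, Cd63, the Cd3 genes and single macrophage markers were named after their values were seen. Alternatives changed the test, scaling, filter, block and libraries.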

Additional observations from a re-analysis of the deposited data

How the results depend on the processing

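Counts of called genes and the calls of Ctsb and Ctsz depended on the model. For ILC1 against NK cells as the mean of both diets, in lean mice and in obese mice, 113, 60 and 24 genes were called with all libraries. DESeq2 called 222, 151 and 154, and 8, 77 and 21 in obese against lean NK cells, obese against lean ILC1 and the difference of the diet effects, where edgeR called 0. DESeq2 gave no adjusted p to Ctsb, Ctsh, Ctsl and Ctsz in any comparison; of the other 6 it called 0 in the mean of both diets, and 1 (Ctss) in obese mice and in obese against lean ILC1. With the mouse as a replicate block, 46, 21 and 0 genes were called in ILC1 against NK cells (mean of both diets, lean and obese), with 0 cathepsins in each. In the mean of both diets this block also turned Ctsc to -0.14 and Ctsw to -0.060. It changed no other call of a cathepsin. The pairing rests on the shared mouse.

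Alternatives chosen after seeing the data were these. Without lean NK 27, obese ILC1 25 and obese ILC1 26, the genes called were 245, 219 and 154 in ILC1 against NK cells, 5 and 28 in the diet comparisons of NK cells and ILC1, and 18 for the difference of diet effects. The cathepsins called were then 2 in the mean of both diets (Ctsb 1.09, Ctsz 1.16), 2 in lean mice (Ctsb higher, Ctss lower), 2 in obese mice (Ctsb, Ctsz), 1 in obese against lean ILC1 (Ctss) and 1 for the difference (Ctss, 2.04). In that setting obese ILC1 27 was the only obese ILC1 library and was assumed to vary like the others. Counts and calls in the mean of both diets, obese mice, obese against lean ILC1 and the difference thus rest on it. The spread of obese ILC1 could not be estimated there, so no conclusion is drawn from these calls. That setting turned Ctsc to -0.53 and Ctss to -0.10 in the mean of both diets. It turned Ctsc to -0.54 and Ctsw to 0.18 in obese mice, and Ctsd to 0.085 in obese against lean NK cells. With the replicate block and without both libraries of obese mouse 26, 60 genes and 1 cathepsin were called in the mean of both diets, 8 genes in obese mice and 1 cathepsin in lean mice. Ctsc became -0.51, Ctsl -0.52 and Ctss -0.37 in the mean of both diets, and Ctsc -0.46 and Ctsw 0.21 in obese mice.

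With the compared libraries alone, 0 genes were called in obese mice and 1 cathepsin (Ctsb) in lean mice. Leaving out 1 library at a time gave 63 to 161, 29 to 102 and 5 to 66 genes in ILC1 against NK cells, and 0 to 3, 0 to 1 and 0 to 3 cathepsins. In the diet comparisons it gave 0 to 1 genes in NK cells, 0 to 6 genes and 0 to 1 cathepsins in ILC1, and 0 to 1 genes for the difference. Without obese ILC1 25, Ctsh was called beside Ctsb and Ctsz in the mean of both diets, and Ctsb, Ctss and Ctsz were called in obese mice. Over these settings the log2 fold change in the mean of both diets ran from -0.47 to 0.23 for Ctsc, -0.17 to 3.07 for Ctsl, -0.33 to 1.67 for Ctss and -0.11 to 0.27 for Ctsw. In obese mice it ran from -0.39 to 1.01 for Ctsc and -0.52 to 0.26 for Ctsw, and in obese against lean NK cells from -0.24 to 0.067 for Ctsd. Per kilobase of exon, the mean share of Ctsc and Ctsw was 43.6% in lean NK cells, 43.4% in obese NK cells and 50.6% in lean ILC1. In obese ILC1 it was 33.8%, and 46.9% without obese ILC1 26. In lean mice the likeness of the cell types in raw counts thus did not hold per kilobase, and no test was made on these shares. Other scaling and no filter changed no call of Ctsb or Ctsz. Where the cause of a changed call is not given, the cause was not tested. Low counts limit what Ctsh and Ctsl can show: Ctsl had at most 2 counts in 3 libraries.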
